A study of Homo sapiens with 20 samples.

Results

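NETO2 and the kainate receptor complex were followed across 5 lines of the melanoma cell line WM793 measured on Affymetrix human exon arrays. The 7 genes NETO1, NETO2, GRIK1, GRIK2, GRIK3, GRIK4 and GRIK5 were taken by symbol from the platform annotation. Each had 1 row, so that they made up 7 of the 18384 features tested. NME1-wild-type overexpresses the metastasis suppressor NME1, and NME1-E5A, NME1-K12Q and NME1-P96S overexpress mutant forms of it. The fifth line is Parent, the WM793 cells without a construct, and WM793 is an established line from a vertical growth phase melanoma, all cells were grown for 3 days, and each line had 4 arrays that the design text calls technical replicates. Each construct is thus represented by 1 line, and p-values measure only the spread between arrays. NETO2 was chosen by its measured levels, since these changed in opposite directions in NME1-wild-type and NME1-E5A. Its values in those lines are therefore given as a description with no test, while the other 6 genes played no part in the choice.

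Kainate receptors are glutamate-gated cation channels of 4 subunits. GRIK1, GRIK2 and GRIK3 encode subunits that can form working channels alone, and GRIK4 and GRIK5 encode high-affinity subunits that need one of those as partner. NETO1 and NETO2 encode single-pass membrane proteins with extracellular CUB domains and an LDL receptor class A domain. They are known from rodent neurons as auxiliary subunits that bind kainate receptors and slow their desensitisation, and NETO1 also binds NMDA receptors. A study of another tumour line has listed NETO2 among genes that NME1 lowers. The E5A change is known to impair the exonuclease activity of NME1, and P96S is the human form of the Killer-of-prune change of Drosophila.

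The values are log2 expression levels that the authors normalised with RMA, a method that summarises the probes of a gene. Array medians lay between 6.27 and 6.50 and array interquartile ranges, the spread over all rows of an array, between 2.19 and 3.16. The narrowest spread was that of Parent replicate 2 (2.19), followed by NME1-P96S replicate 3 (2.33) and by NME1-K12Q replicate 2 (2.46). RMA values carry no detection call, so a low level cannot be told from background, and levels of different rows are not compared. Fewer cells expressing a gene and less RNA per cell cannot be told apart in such bulk RNA. Of 12 melanocyte and melanoma markers 10 had a row of their own and 0 passed the test against Parent in any line, where between 0.00544% and 0.218% of all features passed. SOX10, the neural crest and melanocyte transcription factor, averaged 9.38 over the 20 arrays and the adhesion molecule gene MCAM 9.86. The pigment cell genes MLANA, TYRP1 and PMEL averaged 3.69, 4.17 and 4.71. Of 9 neuron markers 8 had a row and 0 passed against Parent, and their summed log2 level spanned 40.8 to 43.1 in NME1-wild-type, 40.8 to 42.0 in NME1-E5A, 41.1 to 43.6 in NME1-K12Q, 39.1 to 43.5 in NME1-P96S and 41.1 to 45.8 in Parent.

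NETO2 (row 3690154) was highest in NME1-wild-type and lowest in NME1-E5A, with NME1-K12Q, NME1-P96S and Parent close together between them. Because the results turn on the level of this transcript, the sequence just before its start is shown. It covers the 250 bases upstream at chr16:47143946-47144195 on the minus strand of GRCh38.p14, from RefSeq, with GC boxes in capitals.
NETO2: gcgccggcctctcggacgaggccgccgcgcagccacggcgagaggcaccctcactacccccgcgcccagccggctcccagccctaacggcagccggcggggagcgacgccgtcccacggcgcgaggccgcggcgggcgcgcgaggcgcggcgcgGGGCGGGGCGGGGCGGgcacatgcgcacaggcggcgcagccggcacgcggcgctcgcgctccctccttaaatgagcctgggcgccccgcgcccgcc
The stretch holds 3 overlapping matches to the GC box GGGCGG, which was searched on both strands. That motif occurs in 42.6% of 35116 upstream stretches of the same length. The TATA box letters TATAAA, the CCAAT box letters CCAAT and the E-box letters CACGTG were not found in it on either strand, and occur in 10.7%, 32% and 6.34% of all stretches. It has 47 CpG dinucleotides against a median of 11, and 99.7% of the stretches have fewer. Among the other members with a sequence, GRIK4 had 44 CpG, GRIK3 29, GRIK2 25, NETO1 21 and GRIK5 6.

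In NME1-wild-type the 4 arrays gave NETO2 levels of 6.62, 6.47, 6.79 and 6.96, with a mean of 6.71 ± 0.215 (SD, n = 4). In NME1-E5A they gave 4.46, 4.57, 4.35 and 4.604, with a mean of 4.50 ± 0.117. NME1-K12Q had 5.73, 5.60, 5.74 and 5.75, with a mean of 5.70 ± 0.0669. All arrays of NME1-wild-type stood above and all arrays of NME1-E5A below every other array. NME1-P96S had 5.58, 5.64, 5.24 and 5.55, with a mean of 5.50 ± 0.177. Parent had 5.54, 5.68, 5.59 and 5.59, with a mean of 5.60 ± 0.0574. The lines without the wild-type or E5A construct overlapped one another.

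The difference from Parent was 1.11 on the log2 scale in NME1-wild-type and -1.11 in NME1-E5A, so that the mean of both differences was 0.0027. NME1-wild-type stood above NME1-E5A by 2.22, a 4.65-fold ratio, above NME1-K12Q by 1.01 and above NME1-P96S by 1.21. NME1-E5A stood below NME1-K12Q by a log2 difference of -1.21 and below NME1-P96S by -1.01. The SE of each difference was 0.118. The lowest NME1-wild-type array lay 0.722 above the highest array of the other lines, and the highest NME1-E5A array lay 0.639 below the lowest array of the others. These distances were used to choose the gene, and nothing is read from them. For reference, groups of arrays did not overlap for 0.827% of features between NME1-wild-type and Parent, for 1.99% between NME1-E5A and Parent and for 3.3% between NME1-wild-type and NME1-E5A. The share was 1.34% for NME1-wild-type and NME1-K12Q, 1.83% for NME1-wild-type and NME1-P96S, 3.54% for NME1-E5A and NME1-K12Q and 3.01% for NME1-E5A and NME1-P96S. The plot of NETO2 on each array shows the 3 levels.

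**Figure D1:**
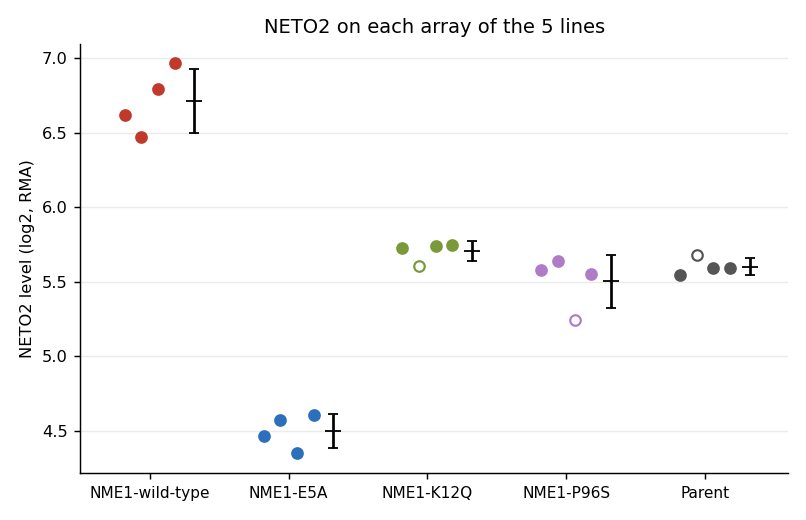
NETO2 level (log2, RMA) on each of the 20 arrays, by line, with replicates from left to right, open points for the 3 arrays of narrowest spread and bars for the mean and SD (n = 4). The NME1-wild-type arrays sit between 6.47 and 6.96, the NME1-E5A arrays between 4.35 and 4.604 and the 12 other arrays between 5.24 and 5.75.

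The contrasts of NETO2 without NME1-wild-type and NME1-E5A were small. Those with Parent share the Parent arrays from which the opposite changes are counted, so their tests are not free of the choice. In NME1-K12Q it differed from Parent by 0.10 (95% interval -0.14 to 0.35), and limma, a linear model fitted over all features, gave an adjusted p of 0.9999. In NME1-P96S it differed from Parent by -0.10 (95% interval -0.35 to 0.15, limma adjusted p = 0.850). NME1-K12Q stood above NME1-P96S by 0.20 (95% interval -0.05 to 0.45, limma adjusted p = 0.9999). A difference was called where the adjusted p was below 0.05 and the fold reached 1.5, and none of the 3 passed. The arrays overlapped in all 3 pairs of lines. Of all features, 1.17% had no overlap between NME1-K12Q and Parent, 1.23% between NME1-P96S and Parent and 2.22% between NME1-K12Q and NME1-P96S. All 3 intervals lay within -0.35 and 0.45 on the scale of the RMA values. The value in NME1-P96S against Parent rests on its replicate 3, at 5.24, which is also one of the arrays of narrowest spread. Without the 3 narrowest arrays the difference was 0.014 and with quantile normalisation 0.017, so that its sign turned.

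In 3 of the 5 lines the level of NETO2 was ordered by the interquartile range of the array, upward in NME1-wild-type and NME1-P96S and downward in NME1-E5A. The part of array spread in the levels was not tested. In order of that range, from 2.64 to 2.87, the NME1-wild-type arrays gave 6.47, 6.62, 6.79 and 6.96. The NME1-E5A arrays, with ranges from 2.71 to 2.80, gave 4.604, 4.57, 4.46 and 4.35 in the same order. NME1-P96S had 5.24, 5.55, 5.58 and 5.64 over ranges from 2.33 to 3.16. The NME1-K12Q and Parent arrays had no such order throughout, with 5.60, 5.74, 5.73 and 5.75 in NME1-K12Q and 5.68, 5.59, 5.54 and 5.59 in Parent. In a fit with the interquartile range as a covariate, which gives all lines 1 common slope, the differences from Parent were 1.09 in NME1-wild-type and -1.13 in NME1-E5A.

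NETO1 (row 3812922), the paralogue of NETO2, had levels of 3.37, 3.36, 3.33 and 3.30 in NME1-wild-type. It had 3.42, 3.39, 3.39 and 3.49 in NME1-E5A, and 3.36, 3.51, 3.30 and 3.23 in NME1-K12Q. It had 3.26, 3.15, 3.60 and 3.40 in NME1-P96S, against 3.24, 3.89, 3.51 and 3.23 in Parent. The ranges of all 5 lines lay within that of NME1-P96S and Parent together, and the highest array was Parent replicate 2. NETO1 differed by -0.13 in NME1-wild-type, -0.05 in NME1-E5A, -0.12 in NME1-K12Q and -0.12 in NME1-P96S, all against Parent. The NME1-wild-type arrays lay below all NME1-E5A arrays, by a mean of -0.08 (limma adjusted p = 0.9998). This was the only pair of lines without overlap among the 60 pairs of the 6 genes other than NETO2. Between NME1-wild-type and NME1-E5A 3.3% of all features had no overlap. Over the pairs of lines that share ran from 0.827% (NME1-wild-type and Parent) to 3.54% (NME1-E5A and NME1-K12Q).

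GRIK1 (row 3928211) had means of 3.91 ± 0.0335 in NME1-wild-type, 4.01 ± 0.0749 in NME1-E5A, 3.95 ± 0.134 in NME1-K12Q, 4.01 ± 0.172 in NME1-P96S and 4.09 ± 0.165 in Parent (SD, n = 4). Its largest difference from Parent was -0.18, in NME1-wild-type (95% interval -0.41 to 0.06). With an unadjusted p of 0.128 it was the smallest p among these 60 tests. GRIK2 (row 2918982) had 6.24 ± 0.173 in NME1-wild-type, 6.50 ± 0.165 in NME1-E5A, 6.30 ± 0.129 in NME1-K12Q, 6.48 ± 0.392 in NME1-P96S and 6.28 ± 0.418 in Parent. It alone had positive differences from Parent, 0.22 in NME1-E5A (95% interval -0.18 to 0.62), 0.20 in NME1-P96S and 0.02 in NME1-K12Q, beside -0.04 in NME1-wild-type. GRIK3 (row 2406926) had 5.30 ± 0.11 in NME1-wild-type, 5.30 ± 0.0493 in NME1-E5A, 5.31 ± 0.281 in NME1-K12Q, 5.28 ± 0.469 in NME1-P96S and 5.51 ± 0.431 in Parent. Its differences from Parent lay between -0.24 and -0.21 in all 4 lines and rested on Parent replicate 2, at 6.06. Without that array they lay between -0.05 and -0.02.

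GRIK4 (row 3352618) had 5.10 ± 0.0739 in NME1-wild-type, 5.11 ± 0.0955 in NME1-E5A, 5.21 ± 0.297 in NME1-K12Q, 5.02 ± 0.533 in NME1-P96S and 5.30 ± 0.562 in Parent. The difference of -0.28 in NME1-P96S (95% interval -0.79 to 0.23) was the largest between any lines for these 6 genes, at 1.21-fold. Without Parent replicate 2, whose level was 6.09, it was -0.01, and the differences in the other lines turned to between 0.07 and 0.18. GRIK5 (row 3863380) had 5.62 ± 0.125 in NME1-wild-type, 5.56 ± 0.186 in NME1-E5A, 5.67 ± 0.383 in NME1-K12Q, 5.46 ± 0.705 in NME1-P96S and 5.70 ± 0.508 in Parent. Its differences from Parent ran from -0.24 in NME1-P96S to -0.03 in NME1-K12Q. Leaving out Parent replicate 2 brought the difference in NME1-P96S to -0.0033, and leaving out replicate 3 of NME1-P96S brought it to -0.56. The plot of the 6 genes on each array shows the wide ranges of NME1-P96S and Parent beside the narrow ones of NME1-wild-type and NME1-E5A.

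**Figure D2:**
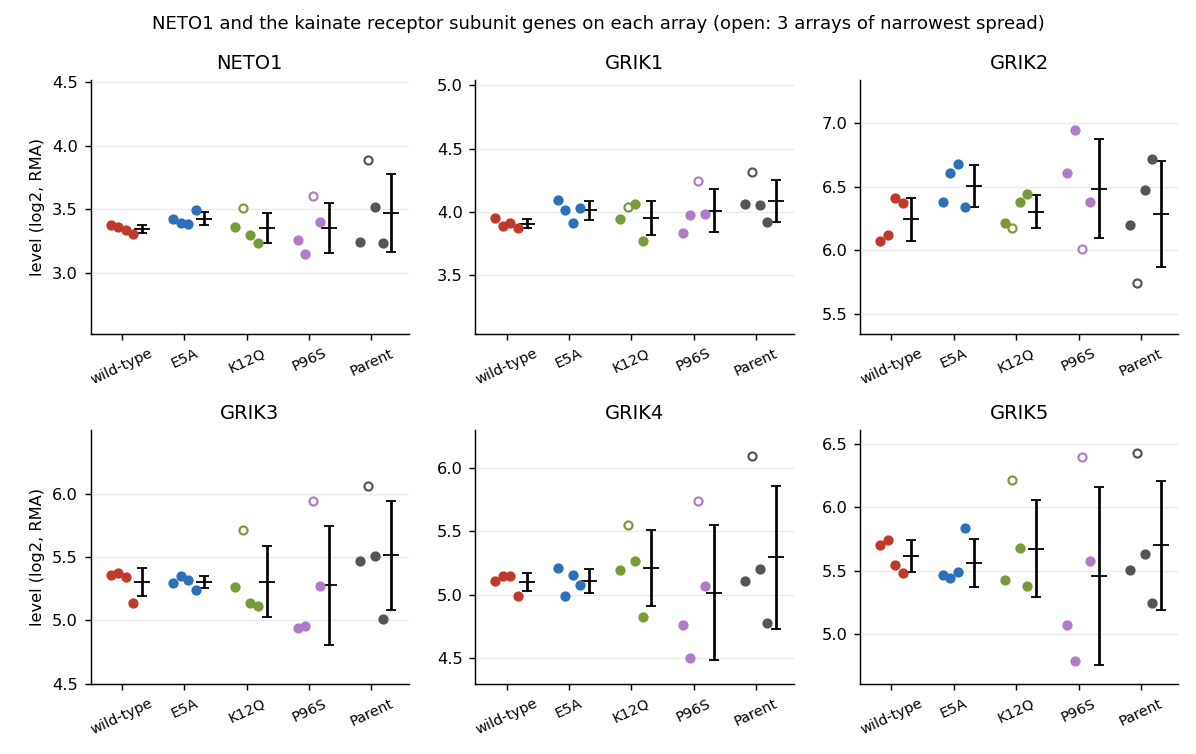
Levels (log2, RMA) of NETO1 and GRIK1 to GRIK5 on each of the 20 arrays, by line, on axes of equal length, with bars for the mean and SD (n = 4) and open points for the 3 arrays of narrowest spread. Parent replicate 2 is the highest array for every gene except GRIK2, where it is the lowest.

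Together, 0 of the 6 genes passed in any of the 10 pairs of lines, and 0 of the 60 tests had an unadjusted p under 0.05 (limma, smallest adjusted p = 0.850). An unadjusted p under 0.05 was also rare over all features. It was reached by at least 237 of 18384, in NME1-wild-type against NME1-K12Q, and at most 756, in NME1-E5A against NME1-P96S. Of all features, 0.0326% passed in NME1-wild-type against Parent, 0.218% in NME1-E5A, 0.00544% in NME1-K12Q and 0.103% in NME1-P96S. Between NME1 lines the share was 0.207% for NME1-wild-type against NME1-E5A, 0.0381% against NME1-K12Q and 0.201% against NME1-P96S. It was 0.169% for NME1-E5A against NME1-K12Q, 0.239% for NME1-E5A against NME1-P96S and 0.277% for NME1-K12Q against NME1-P96S. In the moderated F test over the 5 lines 0 of the 6 passed, against 0.582% of features (limma adjusted p = 0.99998 for each). Of the 24 differences from Parent, 21 were below 0. They share the 4 Parent arrays, and the median over all features was also below 0 in every line, between -0.06 and -0.03. The 95% intervals of the 60 differences stayed within -0.83 and 0.80 on the scale of the RMA values. Since RMA understates changes of dim rows, they set no bound on the change in RNA itself. These intervals are set beside those of NETO2 in the plot of differences from Parent.

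**Figure D3:**
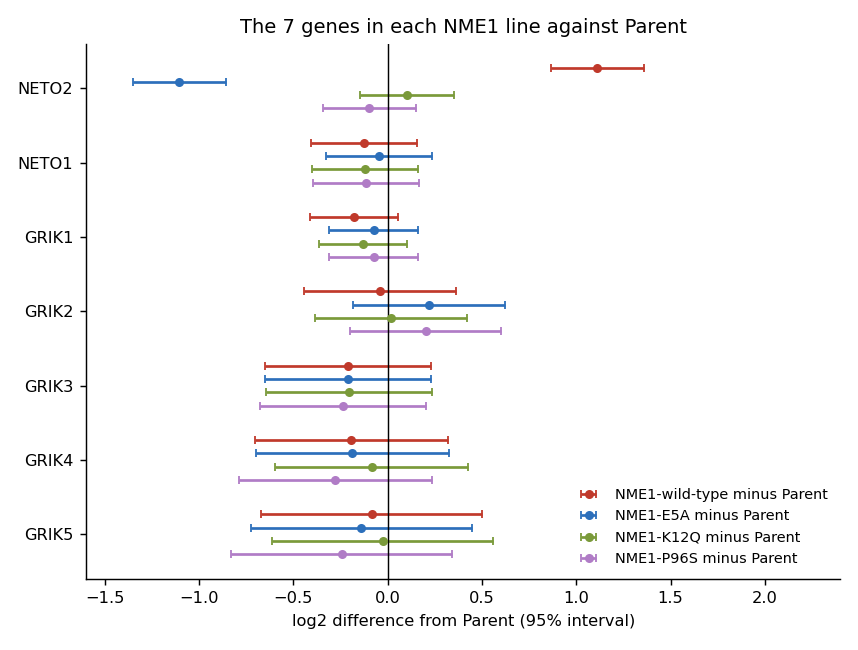
Log2 difference from Parent of the 7 genes in the 4 NME1 lines, as points with 95% intervals from the limma fit over all 20 arrays. NETO2 lies at 1.11 in NME1-wild-type and -1.11 in NME1-E5A. These 2 differences were used to choose the gene, so their intervals are a description and no test. The intervals of all other points include 0.

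The pooled SD between arrays of a line was 0.141 for NETO2. For the 6 genes that did not enter the choice, the range of line means was 0.56 to 1.4 times their own pooled SD, from GRIK5 with an SD of 0.436 to GRIK1 with an SD of 0.128. Across the 20 arrays the level of GRIK3, GRIK4 and GRIK5 went with the interquartile range at r = -0.96, -0.95 and -0.95, that of NETO1 at -0.88 and that of GRIK1 at -0.78. GRIK2 went the other way at r = 0.84. The smallest of these in size, 0.78 for GRIK1, was reached by 41.7% of features, and the median size over all features was 0.72. The share of features that reach the larger values was not counted. NETO2 had an r of 0.05, and 2.79% of features had one of smaller size. Its r includes the NME1-wild-type and NME1-E5A levels by which the gene was chosen. Within 3 of the 5 lines its level was ordered by the interquartile range, as given above. These correlations share the same 20 arrays and describe them alone, as in the plot of levels against array spread.

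**Figure D4:**
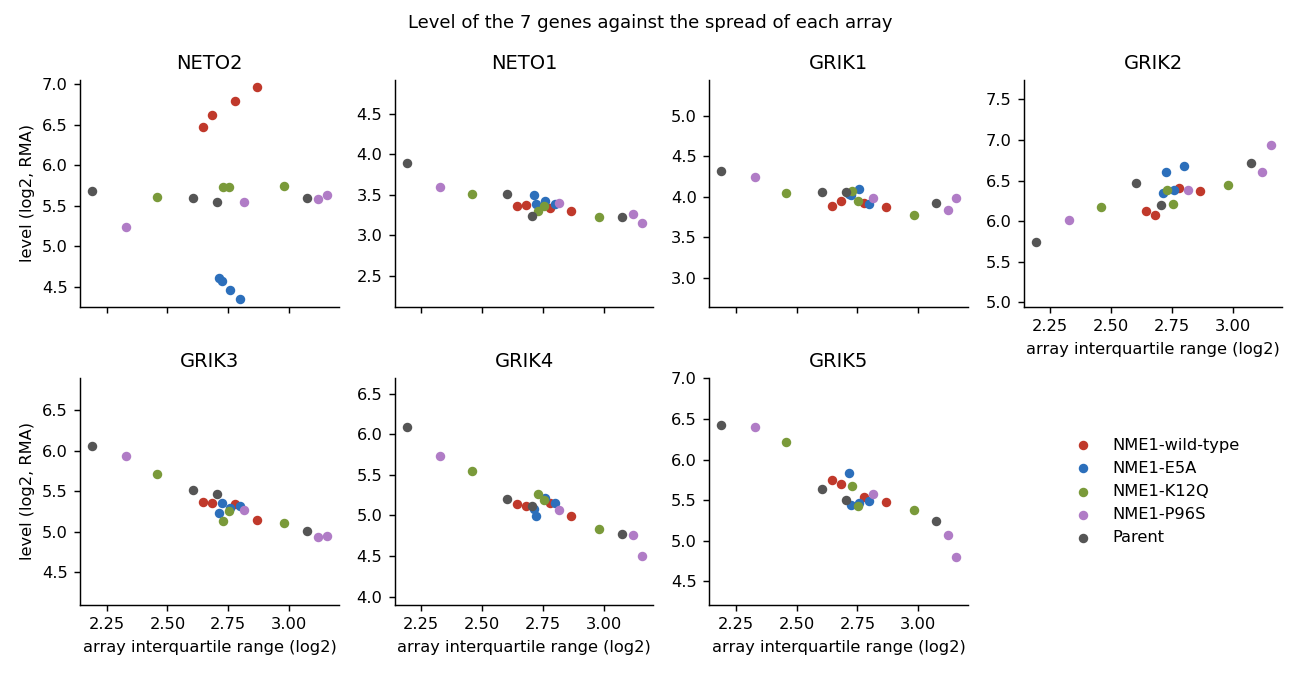
Level (log2, RMA) of each of the 7 genes against the interquartile range of the array (log2), with 1 point for each of the 20 arrays coloured by line and vertical axes of equal length. GRIK3, GRIK4 and GRIK5 run downward along 1 band for all lines, and GRIK2 upward. NETO2, chosen by its levels in NME1-wild-type and NME1-E5A, splits by line.

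Among NETO1, GRIK1, GRIK3, GRIK4 and GRIK5 the 10 pairwise correlations over 20 arrays lay between 0.69 and 0.93. GRIK2 correlated with these 5 genes between -0.84 and -0.54. Without the 3 narrowest arrays the ranges were 0.29 to 0.84 and -0.75 to -0.09. NETO2 correlated with the other 6 genes between -0.31 and -0.01, and between -0.42 and 0.06 without those arrays. Leaving out the 3 arrays also lowered the pooled SD of GRIK5 to 0.223, that of GRIK4 to 0.186 and that of GRIK3 to 0.153, while that of NETO2 was 0.124. Even then 0 of the 6 genes passed in any pair of lines, and the smallest limma adjusted p was 0.105, for GRIK5 in NME1-wild-type against NME1-P96S. In that fit between 6 (NME1-K12Q against Parent) and 204 (NME1-E5A against NME1-P96S) of the 18384 features passed.

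NETO2 lies on chromosome 16, and the 5 measured genes nearest to it on either side are set beside it. These 10 genes were taken by their order in the RefSeq gene list. None passed in any line against Parent, beside at most 0.218% of all features. Their differences ranged from -0.15 to 0.29 in NME1-wild-type, with a median of 0.11, and from -0.15 to 0.30 in NME1-E5A, with a median of 0.06. The adjacent measured genes are DNAJA2, which encodes a co-chaperone of HSP70, and ITFG1. DNAJA2 differed from Parent by 0.08 in NME1-wild-type and 0.06 in NME1-E5A, and ITFG1 by 0.29 and 0.30. Beside them NETO2 stood at 1.11 and -1.11, the opposite changes for which it was chosen. Nothing is therefore read from its distance to the neighbours in these lines. In NME1-K12Q the 10 genes ranged from -0.10 to 0.21 and in NME1-P96S from -0.22 to 0.15.

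**Figure D5:**
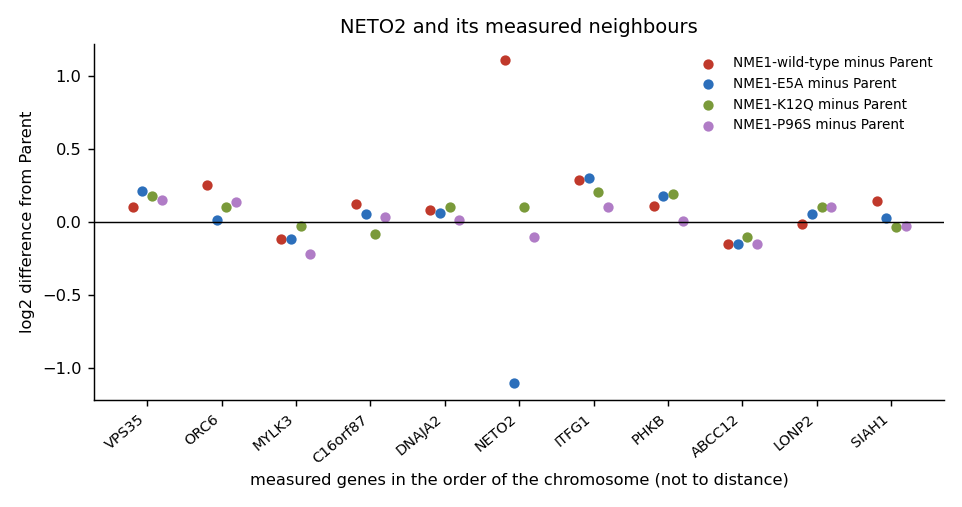
Log2 difference from Parent of NETO2 and of the 5 measured genes on either side, in the order of chromosome 16, with 1 point for each NME1 line. The neighbours lie between -0.22 and 0.30. NETO2 was chosen for its opposite changes in NME1-wild-type and NME1-E5A, so its distance from them there is a description and no test.

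Of 14404 other genes with a single symbol, those most like NETO2 over the 20 arrays were EREG (r = 0.80), GDA (0.79), MMP3 (0.78), ST6GALNAC5 (0.75) and RXFP2 (0.74). EREG encodes the growth factor epiregulin, GDA guanine deaminase and MMP3 the matrix protease stromelysin. ST6GALNAC5 encodes a sialyltransferase of gangliosides, and RXFP2 the receptor for an insulin-like peptide of the testis. EREG averaged 7.94 ± 0.262 in NME1-wild-type, 5.97 ± 0.139 in NME1-E5A, 7.59 ± 0.14 in NME1-K12Q, 6.23 ± 0.369 in NME1-P96S and 7.06 ± 0.202 in Parent (SD, n = 4). Against Parent EREG differed by 0.88 in NME1-wild-type, -1.08 in NME1-E5A, 0.53 in NME1-K12Q and -0.83 in NME1-P96S. These genes were picked by their likeness to NETO2, which was itself chosen by its levels. Their differences are therefore a description with no test. MMP3 and GDA were highest in NME1-K12Q, at 6.66 ± 0.177 and 7.22 ± 0.139. The genes most opposite were ITGA9 (r = -0.83), MDGA2 (-0.77), SEMA4C (-0.75), PIK3IP1 (-0.74) and PCSK6 (-0.74). ITGA9, an integrin subunit, averaged 6.70 ± 0.0441 in NME1-wild-type, 7.41 ± 0.101 in NME1-E5A, 6.79 ± 0.127 in NME1-K12Q, 6.87 ± 0.162 in NME1-P96S and 6.89 ± 0.2 in Parent. With quantile normalisation the r of MDGA2 was -0.35. The next genes on either side were NRG1 at 0.72 and HAS2 at -0.72. Over the 5 line means, which are few points, r was 0.87 for EREG and -0.91 for ITGA9.

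Glutamate receptors, their partners, glutamate transport and metabolism, and proteins that share the CUB domain with the NETO proteins were read from 7 lists with 112 genes, of which 88 had a row of their own and 10 were on rows with several symbols. Of these 88, 0 passed in NME1-wild-type, 0 in NME1-E5A and 0 in NME1-K12Q against Parent. In NME1-P96S 1 fell and 0 rose, beside the 0.103% of all features given above. The median difference of the 88 genes was -0.10 in NME1-wild-type, -0.08 in NME1-E5A, -0.06 in NME1-K12Q and -0.15 in NME1-P96S, beside medians of -0.03, -0.04, -0.05 and -0.06 over all features.

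The gene that fell was SLC7A11, the exchanger subunit that exports glutamate in return for cystine, one of 17 measured genes of glutamate transport and metabolism. Its levels were 7.45, 7.44, 6.64 and 6.86 in NME1-P96S, against 8.56, 7.72, 8.53 and 8.79 in Parent. The lines did not overlap, as was the case for 1.23% of all features, and the difference was -1.30 (limma adjusted p = 0.0155). The call ended without Parent replicate 1, 3 or 4 or NME1-P96S replicate 4 (limma adjusted p from 0.0637 to 0.0944), with arrays centred on their medians (0.0538) and with only these lines fitted (0.981). In NME1-K12Q SLC7A11 had 9.66, 9.19, 9.45 and 9.45, a difference of 1.03 from Parent that did not pass. It differed by 0.47 in NME1-wild-type, with 8.98, 8.61, 9.13 and 8.75, and by -0.05 in NME1-E5A, with 8.47, 8.40, 8.55 and 7.98. Between NME1 lines SLC7A11 was higher than in NME1-P96S by 1.77 in NME1-wild-type (limma adjusted p = 0.000289) and by 2.34 in NME1-K12Q (limma adjusted p = 2.26e-05), and both calls held under all 28 alternatives run. It was also higher in NME1-E5A than in NME1-P96S by 1.25 (limma adjusted p = 0.00913), which held under 25 of 28. In NME1-E5A against NME1-K12Q the difference was -1.09 (limma adjusted p = 0.0427), which held under 12 of 28. In the same list the transaminase gene GOT2 stood at 0.001 in NME1-wild-type, -0.16 in NME1-E5A, -0.01 in NME1-K12Q and -0.18 in NME1-P96S against Parent. The glutamine carrier gene SLC1A5 stood at -0.11 in NME1-wild-type, -0.14 in NME1-E5A, 0.11 in NME1-K12Q and -0.11 in NME1-P96S.

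The other ionotropic receptors had no called member. Among 5 measured AMPA and delta receptor subunits the median difference was -0.15 in NME1-wild-type and -0.16 in NME1-E5A, with GRIA1 at -0.24 and -0.18 and GRID1 at -0.20 and -0.25. Among 6 NMDA receptor subunits the medians were -0.12 and -0.14, with GRIN2D at -0.12 and -0.19 and GRIN2C at -0.12 and -0.13. For 6 metabotropic receptors they were -0.10 and -0.09, with GRM4 at -0.10 and -0.03 and GRM6 at -0.19 and -0.10. The AMPA receptor auxiliary subunits had 10 measured members and medians of -0.14 and -0.17. Of these CNIH2 differed by -0.01 and 0.13 and GSG1L by -0.12 and -0.20.

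Proteins known to bind or modify kainate receptors had 16 measured members and medians of -0.02 in NME1-wild-type and 0.02 in NME1-E5A. The scaffold gene SDCBP (syntenin) differed from Parent by 0.08 and 0.05, and CTNNB1, which encodes beta-catenin, by 0.17 and 0.23. Of the CUB domain proteins 28 were measured, with medians of -0.10 and -0.06. PCOLCE, an enhancer of procollagen processing, differed by -0.03 and -0.01, and DCBLD2, a membrane protein with a CUB domain, by 0.08 and 0.12. In NME1-K12Q and NME1-P96S the medians of these 2 lists were -0.01 and -0.05 for the kainate receptor partners and -0.06 and -0.20 for the CUB domain proteins.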

How the data were processed

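Per the design text the authors applied RMA in R, and the deposited table holds its log2 output for each row and array. The submitters' processing notes also name limma. The RMA version, genome build and annotation release are not given in the sources used here. Of 18708 rows, 14735 had a single symbol in the platform annotation, and 1100 were not listed. Where a gene had several rows, the row of highest mean was kept, which left 18384 features. Line means were fitted over all 20 arrays with limma 3.58.1 in R 4.3.3 (lmFit and eBayes, 15 residual degrees of freedom). P-values were two-sided and adjusted by the Benjamini-Hochberg method over all features. The fit was tested on simulated data with independent noise for each feature, which lack the array spread that the measured features share.

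The members and lists were chosen with earlier results of these data known. Named are all members, each called list gene with the 2 uncalled ones of highest mean, 5 neighbours a side, and the 5 genes most like and most opposite to NETO2. Numbers shared by replicates were not taken as pairs: in deviations from line means, 25 of 40 same-numbered pairs of arrays had a correlation over 0.1 (range -0.85 to 0.81). The number of arrays limits precision. RMA understates changes of dim rows.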

Additional observations from a re-analysis of the deposited data

Results flagged for a closer look

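NETO2 lay above Parent on all NME1-wild-type arrays and below it on all NME1-E5A arrays, a distance of 2.22 between both lines on the log2 scale. The gene was picked for these opposite changes, and the difference was not tested.

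In 3 of 35 groups of 4 arrays 1 array stood far from the others, where chance gives about 1 in 20. NETO2 in NME1-K12Q replicate 2 was at 5.60, with the nearest other array at 5.73. GRIK3 in NME1-wild-type replicate 4 was at 5.14, with the nearest at 5.35. GRIK5 in NME1-E5A replicate 4 was at 5.84, with the nearest at 5.49. NME1-K12Q replicate 2 is one of the 3 arrays of narrowest spread.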

How the results depend on the processing

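Over 28 alternatives, 20 of which leave out 1 array, 0 of the 6 genes other than NETO2 passed in any pair of lines, and their smallest limma adjusted p was 0.105. Of all features, at most 204 of 18384 passed in a pair of lines under any alternative. NETO2 differed from Parent by 1.03 to 1.19 in NME1-wild-type and by -1.14 to -1.002 in NME1-E5A, with -1.002 under quantile normalisation. The NETO2 difference of NME1-P96S from Parent turned to 0.017 with quantile normalisation and to 0.014 without the 3 narrowest arrays. The cause was not tested. Among the 7 gene lists, the count in NME1-P96S was 0 with arrays centred on their medians and 0 with only the lines compared, and 0 to 1 when 1 array was left out. With the interquartile range as a covariate 1 gene passed in NME1-E5A (SLC1A1) and 1 in NME1-K12Q (SLC7A11). In that fit 67 and 9 of the 18384 features passed against Parent in these lines. The replicate block left every difference as it was, such as 0.10 for NETO2 in NME1-K12Q, and ended 1 call of SLC7A11 (NME1-E5A against NME1-K12Q, -1.09, limma adjusted p = 0.0506). Same-numbered arrays of different lines had a median correlation of 0.24, against -0.05 for other numbers, and 11 of 20 arrays correlated best with an array of their own number. The numbers were not taken as pairs, because not every pair was over 0.1. That rule is no test of an effect shared by same-numbered arrays, which was not tested. With features under the median left out, NETO2 and 5 other members had no value. The number of arrays limits precision.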

Other observations

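The annotation gives rows of their own to GRIK1-AS1 and GRIK1-AS2, antisense transcripts of the GRIK1 locus that were not counted as members. GRIK1-AS1 averaged 3.29 ± 0.157 in NME1-wild-type, 3.36 ± 0.371 in NME1-E5A, 3.54 ± 0.271 in NME1-K12Q, 3.39 ± 0.218 in NME1-P96S and 3.67 ± 0.198 in Parent (SD, n = 4). GRIK1-AS2 averaged 4.10 ± 0.125 in NME1-wild-type, 4.14 ± 0.31 in NME1-E5A, 4.18 ± 0.169 in NME1-K12Q, 4.10 ± 0.0899 in NME1-P96S and 4.02 ± 0.313 in Parent.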
